A study of Mus musculus with 8 samples.

Results

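Oxidative phosphorylation was followed through the genes of its 5 enzyme complexes in bone marrow-derived dendritic cells (BMDC) and bone marrow-derived macrophages (BMDM) of the mouse. Members were the genes of the deposited tables whose symbol starts with Nduf (a, b, c, s or v), Uqcr, Atp5, Sdh (a to d) or Cox4 to Cox8, assembly factors named Ndufaf left out, and every gene on the mitochondrial chromosome (MT). This gave 98 of the 15377 genes listed in either table. Of these, 85 are nuclear (40 of complex I, 4 of complex II, 8 of complex III, 16 of complex IV and 17 of complex V) and 13 are mitochondrially encoded (7 of complex I, 1 of complex III, 3 of complex IV and 2 of complex V). The BMDC table listed 96 members and the BMDM table listed 97: mt-Atp8 and Ndufb11b were not in the first, and Ndufa4l2 was not in the second.

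All donors were C57BL/6 mice with Trpv2fl/fl alleles, that is, with loxP sites around Trpv2, the gene of a calcium-permeable channel, in controls and knockouts alike. Controls carried no Cre. Knockouts were Lyz2-Cre;Trpv2fl/fl, with Cre recombinase driven by Lyz2, the lysozyme gene of myeloid cells, so that the presence of Cre and the loss of Trpv2 cannot be told apart. Marrow was grown for 7 days with 20 ng/mL GM-CSF (BMDC) or 10 ng/mL M-CSF (BMDM), and poly(A) RNA of 2 control and 2 knockout cultures was sequenced for each cell type. The series counts 2 mice per genotype and cell type, and the sources used here give neither the ages nor whether a mouse gave both kinds of culture.

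Complex I takes electrons from NADH and complex II, which is also the succinate dehydrogenase of the citric acid cycle, takes them from succinate. Complex III passes them to cytochrome c and complex IV to oxygen, and the proton gradient built on the way drives complex V, the ATP synthase. Most subunits are made from nuclear genes and imported, while a small core of subunits is made inside the organelle from its own DNA, and complex II has none of these. Macrophages and dendritic cells are known to shift between this route and glycolysis when they are activated.

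The libraries held 15790185 to 19463457 counts. Levels of a gene are compared between libraries in CPM, counts relative to the library total scaled by edgeR's TMM factors, and levels of different genes in FPKM, the authors' counts relative to gene length and library total. Trpv2 had 187 and 244 CPM in BMDC controls against 36.9 and 57.0 CPM in BMDC knockouts, and at 268 and 269 CPM against 25.6 and 28.6 CPM in BMDM, so all 8 libraries matched their genotype labels. Lyz2, which carries the Cre, had 17982 and 20062 CPM in BMDC controls against 107 and 205 CPM in the knockouts. In BMDM, Lyz2 had 62383 and 53322 CPM in controls against 235 and 268 CPM in knockouts. The low Lyz2 and the loss of Trpv2 therefore cannot be told apart either. The defining dendritic marker Zbtb46 stayed under 1 CPM in all 8 libraries, and the summed level of 10 dendritic markers was 271 to 1055 CPM in the BMDC against 235 to 272 CPM in the BMDM, where 7 of the 10 were listed. The sum of 10 macrophage markers was 4062 to 9110 CPM in the BMDC against 10103 to 11290 CPM in the BMDM. In BMDC against BMDM, Ccl22 had 8.55 to 64.7 against 0.115 to 0.541 CPM and Itgax 64.3 to 204 against 33.2 to 55.1 CPM. Ccr7 had 1.43 to 10.3 against 0 to 0.677 CPM. Zbtb46, Dpp4, H2-Eb1 and Cd74 overlapped between the cell types, and Flt3, Cd209a and Ccl17 were not listed in the BMDM. The dendritic list was thus mixed, and the defining marker Zbtb46 by itself does not bear out the BMDC label. Levels of bulk RNA do not tell fewer cells of a type from less RNA per cell.

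The sequence that bears on how mitochondrial reads could be assigned is the start of mt-Co2, the gene of cytochrome c oxidase subunit 2, beside the same stretch of its nuclear copy Gm28661 on chromosome 1. Both are bases 1 to 60 of the transcript in GENCODE M21, in lower case with no part marked.
mt-Co2: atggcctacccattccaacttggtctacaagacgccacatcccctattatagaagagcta
Gm28661: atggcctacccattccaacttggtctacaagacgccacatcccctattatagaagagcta
The identity ran on over bases 1 to 681 of the 684 bases of mt-Co2. In mt-Co1 a copy named Gm29216 matched bases 1067 to 1545 of 1545 without a difference.

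The 13 mitochondrially encoded members spanned the widest range of levels of the module. mt-Co1, the catalytic core of complex IV, averaged 5462 FPKM over the 8 libraries, mt-Nd1 of complex I 2528 FPKM and mt-Cytb, the sole mitochondrial subunit of complex III, 1438 FPKM. In total 7 of the 13 averaged over 100 FPKM and 4 averaged under 10 FPKM. mt-Co2 had 13.3, 29.6, 23.6 and 39.9 FPKM in the BMDC libraries (control 1, control 2, knockout 1, knockout 2) and 44.7, 49.1, 47.0 and 46.8 FPKM in the BMDM. mt-Co3, of the same complex, stayed between 7.03 and 21.1 FPKM, and mt-Atp6 and mt-Atp8, the proton channel subunit of complex V and its small partner, stayed at or under 8.07 FPKM.

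These low members were largely the ones with a near-identical nuclear copy. The share of a transcript's 50-base words that also occur in another gene of GENCODE M21 was 100% for mt-Co2, 99.9% for mt-Co3, 99.5% for mt-Atp6, 98.8% for mt-Nd4l and 98.0% for mt-Nd3, all of them members under 100 FPKM on average. It was 62.2% for mt-Nd4, 51.1% for mt-Co1, 8.19% for mt-Nd2 and 7.61% for mt-Nd5, and 0% for mt-Nd1, mt-Cytb, mt-Nd6 and mt-Atp8. mt-Atp8 was low without a shared word, and 21.1% of its bases overlap mt-Atp6. The sources used here do not give the treatment of reads that map to several places or to overlapping genes, and its part in these levels was not tested, so the levels of the members that share words or overlap are uncertain.

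**Figure D1:**
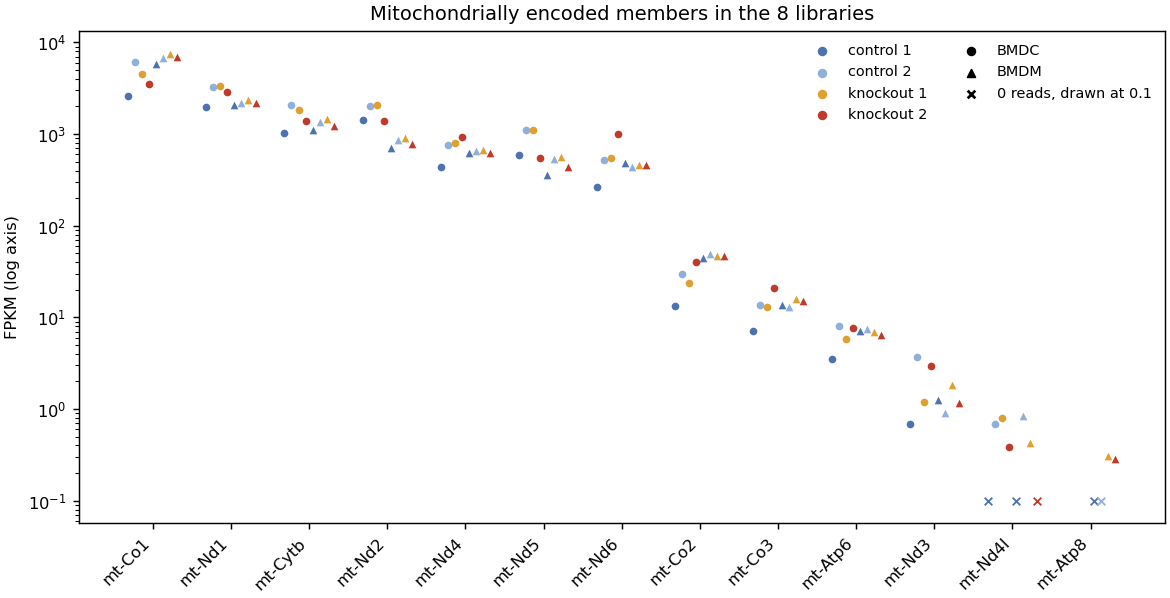
FPKM (log axis) of each mitochondrially encoded member in each of the 8 libraries, with circles for BMDC, triangles for BMDM and crosses for libraries at 0 reads. mt-Co1, mt-Nd1 and mt-Cytb lie highest, and mt-Co2 to mt-Atp8 lie far below the other subunits.

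The makeup of the mitochondrial reads differed between the cell types in every library. mt-Co1 took 38.6%, 46.0%, 39.2% and 38.8% of them in the BMDC and 60.7%, 60.7%, 62.1% and 63.0% in the BMDM. The BMDM libraries thus all lay above the BMDC libraries, whatever the genotype. All 13 members together held 1.04%, 2.04%, 1.78% and 1.41% of all counts in the BMDC and 1.48%, 1.71%, 1.88% and 1.69% in the BMDM, ranges that overlap. These shares are descriptions of single libraries and carry no test.

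The nuclear members were moderately expressed, with a median of 39.4 FPKM over the 8 libraries, 55 of 85 between 10 and 100 FPKM and 16 above. The highest member averaged 150 FPKM in complex I (Ndufa2), 101 FPKM in complex II (Sdhd, a membrane anchor), 135 FPKM in complex III (Uqcr10), 450 FPKM in complex IV (Cox6a1) and 201 FPKM in complex V (Atp5b, the catalytic beta subunit). The lowest averaged 0.031 FPKM in complex I (Ndufb11b), 35.2 FPKM in complex II (Sdhc), 35.9 FPKM in complex III (Uqcrc2), 0.131 FPKM in complex IV (Cox4i2) and 0.840 FPKM in complex V (Atp5o). Complexes II and III therefore had no member at a trace level. Atp5o, which encodes the stalk subunit OSCP, is uncertain, since 34.9% of its words occur in the antisense gene Gm15976 and 12.3% of its exon bases overlap a second gene entry of the same name in GENCODE M21. Cox5b-ps, at 36.3 FPKM, shares 61.9% of its words with Cox5b and is uncertain too.

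Several subunits of complexes IV and V come in tissue forms. Cox4i1, Cox6a1 and Cox6b1 are the general forms, and Cox4i2, Cox6a2 (heart and skeletal muscle) and Cox6b2 (testis) are the restricted ones. Cox4i2 never exceeded 0.235% of the FPKM of Cox4i1, nor Cox6b2 0.113% of that of Cox6b1. Cox6a2 was at 6.74%, 5.33%, 4.44% and 3.78% of the FPKM of Cox6a1 in the BMDC and at 0.156%, 0.0210%, 0.278% and 0.0486% in the BMDM, so that each BMDC library lay above each BMDM library. Cox7a1, the muscle form of subunit 7a, was at 0.647% to 1.74% of the FPKM of Cox7a2 in the BMDC and 0.947% to 4.06% in the BMDM. Of the 3 genes that encode the same subunit c of the ATP synthase ring, Atp5g1 was the lowest in every library, at 8.92 to 18.3 FPKM, while Atp5g2 had 41.0 to 76.5 FPKM and Atp5g3 60.8 to 102 FPKM. Levels of the 2 cell types come from tables scaled separately.

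**Figure D2:**
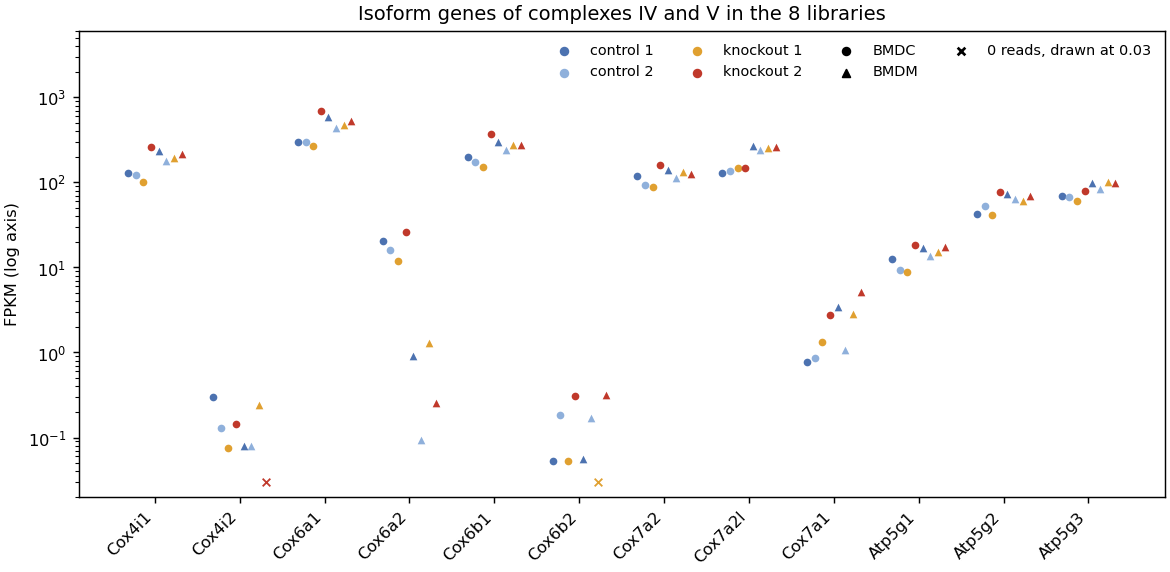
FPKM (log axis) of the isoform genes of complexes IV and V in each library, with circles for BMDC, triangles for BMDM and crosses for 0 reads. Cox6a2 splits by cell type, with 12.1 to 26.3 FPKM in BMDC and at most 1.30 FPKM in BMDM, while Cox4i2 and Cox6b2 stay near 0 in both.

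The first comparison asked how the members differed between knockout and control BMDC. In edgeR's quasi-likelihood fit of 11357 genes, with Benjamini-Hochberg adjusted p-values, 0 of 81 nuclear and 0 of 11 mitochondrially encoded members tested passed an adjusted p of 0.05, and 0 members were under 0.05 before adjustment. The background was 0% (0 genes), with 128 genes or 1.13% under an unadjusted p of 0.05 and 6 genes called by DESeq2. Even the lower Trpv2 and Lyz2 of the knockouts thus did not pass in the edgeR fit. A lack of calls among the members therefore does not show a lack of change. The not tested members were too low for the filter (Ndufa4l2, Cox4i2, Cox6b2 and mt-Nd4l) or not listed. The nuclear members had a median log2 fold change, knockout over control, of 0.55, with 72 of 81 above 0, beside a median of 0.02 and 51.6% above 0 for all genes. The 11 mitochondrially encoded members tested had a median of 0.38 and all 11 were above 0.

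The positive nuclear median rested on knockout 2. Cox4i1, a core-binding subunit of complex IV, was at 187 and 183 CPM in control cultures against 139 and 507 CPM in knockout cultures, a log2 fold change of 0.80 (SE 0.63). Cox6a1 was at 200 and 202 CPM against 170 and 606 CPM (0.95, SE 0.63), and Sdhb, the iron-sulfur subunit of complex II, at 103 and 94.3 CPM against 79.8 and 216 CPM (0.58, SE 0.53). In all of them knockout 2 was high and knockout 1 was below both controls. Over the 81 nuclear members, knockout 2 was the highest of the 4 libraries in 73 and knockout 1 the lowest in 64. Median log2 deviations from the control mean were -0.26 in knockout 1 and 1.10 in knockout 2, against 0.06 and -0.06 in the controls. Knockout 2 also had the highest summed macrophage markers of the BMDC libraries (9110 CPM), the highest dendritic markers (1055 CPM against 271, 393 and 478 CPM) and the highest B and plasma cell markers (30.5 CPM against 1.23, 3.96 and 3.70 CPM), and the part of these in the result was not tested.

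By complex, the nuclear medians were 0.65 in complex I (35 of 38 above 0), 0.51 in complex III (6 of 8), 0.43 in complex IV (14 of 14), 0.55 in complex V (16 of 17) and -0.12 in complex II (1 of 4). In complex I the smallest p values were those of Ndufa11 and Ndufs8, an iron-sulfur subunit, which had 42.0 and 46.8 CPM in control cultures against 44.5 and 123 CPM in knockout cultures (0.92, SE 0.53). In complex III, Uqcr10 had 58.9 and 51.6 CPM against 46.4 and 137 CPM (0.73, SE 0.55). In complex V, Atp5l had 15.6 and 13.2 CPM against 15.1 and 39.1 CPM (0.91, SE 0.53). Each again rested on knockout 2, and none passed.

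The 2 knockout libraries lay on the same side of both controls for 4 nuclear members above (Ndufb2, Cox7a2l, Cox7a1 and Atp5pb) and 5 below (Sdhd, Sdha, Uqcrfs1, Uqcrc2 and Atp5a1), against 12.6% of all genes in each direction. Sdhd was at 151 and 129 CPM in control cultures against 119 and 120 CPM in knockout cultures (-0.23, SE 0.35). Uqcrfs1, the Rieske iron-sulfur protein of complex III, was at 82.5 and 82.1 CPM against 71.9 and 66.2 CPM (-0.25, SE 0.33). Cox7a1 was at 0.390 and 0.445 CPM against 0.626 and 1.83 CPM (1.53, SE 0.88), a range of few reads. These groups did not overlap, but the differences did not pass the test.

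Among the mitochondrially encoded members, control 1 was the lowest library in 11 of 11, with a median deviation of -0.50 against 0.50 in control 2, 0.22 in knockout 1 and 0.66 in knockout 2. mt-Nd6, the member transcribed from the other strand of the mitochondrial DNA, had 130 and 258 CPM in control cultures against 256 and 650 CPM in knockout cultures (1.22, SE 0.60, unadjusted p = 0.087 by edgeR). mt-Co1 had 3786 and 9007 CPM against 6229 and 6798 CPM (0.03, SE 0.57). For both genes the groups overlapped, and for mt-Co1 the controls differed more from each other than from the knockouts.

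**Figure D3:**
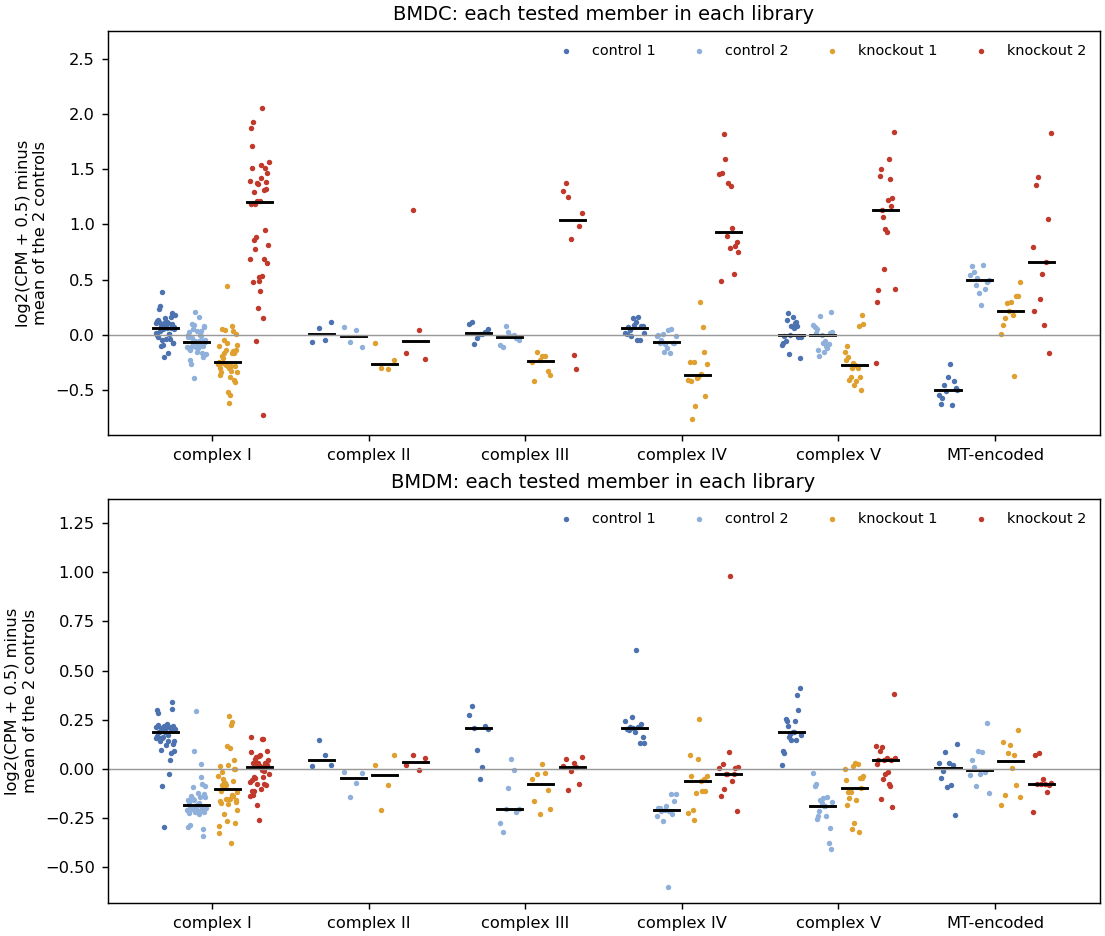
Log2(CPM + 0.5) minus the mean of the 2 controls for each tested member in each library, by complex and for the mitochondrially encoded (MT) members, BMDC and BMDM in separate panels. BMDC knockout 2 lies above the other libraries for most nuclear members outside complex II, while the BMDM libraries stay close to 0. The median of BMDC knockout 2 over all 81 nuclear members, complex II included, is 1.10.

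Gene length moved with the BMDC result. In knockout 2 the median deviation of all genes went from 0.69 in the shortest of 5 equal bins of genes by deposited length to 0.22, -0.02, -0.29 and -0.65 in the longest. The nuclear members are short, with a median of 1587 bases against 4517 for all genes and 59 of 81 in the shortest bin, and their medians over the same bins were 1.18, 0.93, 0.87, 0.24 and -0.72. The longest bin held a single member, Ndufs1, the large iron-sulfur subunit of complex I, at 54.6 and 53.8 CPM in control cultures against 57.3 and 32.7 CPM in knockout cultures. With a loess trend on length removed from each library, the nuclear median was 0.10 and the mitochondrial -0.12, and the deviation of knockout 2 was 0.29. Left out in turn, knockout 2 gave a nuclear median of -0.27. Without knockout 1 it was 1.09, with 55 of 81 nuclear members called (54 higher, 1 lower) beside 27.5% of all genes; the lone knockout library is there assumed to vary like the controls. What sets the length trend was not tested.

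**Figure D4:**
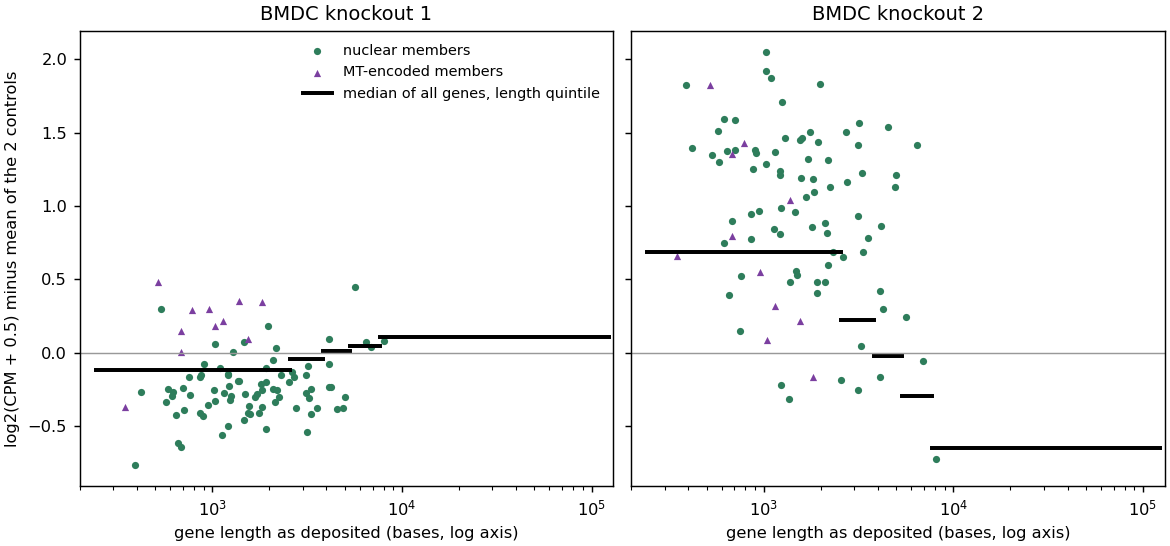
Log2(CPM + 0.5) of each member minus the mean of the 2 BMDC controls, against deposited gene length (bases, log axis), for BMDC knockout 1 and knockout 2, with bars for the median of all genes in each length bin. In knockout 2 the bars fall from 0.69 to -0.65 and the members fall with them from 1.18 to -0.72.

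In the BMDM the same contrast showed small differences. Of 80 nuclear and 10 mitochondrially encoded members tested, 0 passed the adjusted threshold of edgeR's test and 0 were under 0.05 before adjustment, against a background of 0.109% (12 of 11024 genes) and 311 genes or 2.82% unadjusted; DESeq2 called 0 members. The nuclear median was -0.06, with 18 of 80 above 0, beside 48.2% of all genes above 0, and the mitochondrial median was -0.01. As measured, 19 of the 80 nuclear members lay above the control mean in knockout 1 and 44 in knockout 2. With the length trend removed these were 43 and 47, with median deviations of 0.005 and 0.020. By complex the nuclear medians lay between -0.08 and -0.01. Atp5b was at 1053 and 931 CPM in control cultures against 951 and 1007 CPM in knockout cultures, a log2 fold change of -0.02 with a 95% interval of -0.33 to 0.29. Cox4i1 was at 389 and 279 CPM against 281 and 330 CPM (-0.13, interval -0.46 to 0.20), and mt-Co1 at 9695 and 10327 CPM against 10997 and 10497 CPM (0.10, interval -0.22 to 0.43). For these members the intervals leave out a doubling or more in either direction.

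The extremes among the BMDM members were also modest. Ndufb4, an accessory subunit of complex I, had 47.8 and 36.8 CPM in control cultures against 37.0 and 35.0 CPM in knockout cultures (-0.23, SE 0.18). Cox7a1 had 1.96 and 0.566 CPM against 1.43 and 2.70 CPM (0.72, SE 0.52). Ndufs1 had 59.5 and 61.7 CPM against 71.7 and 67.5 CPM (0.20, SE 0.16), with both knockouts above both controls. The nuclear members whose genotypes did not overlap included Ndufc1, Ndufs1, Sdha and Sdhd, and 4 mitochondrial ones (mt-Nd4, mt-Co1, mt-Co2 and mt-Atp6) did not overlap either, against 26.7% of all genes. Control 1 was the highest library in 68 of the 80 nuclear members and control 2 the lowest in 56, so the median turned to 0.14 without control 1 and was -0.25 without control 2.

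Tested directly in a joint fit of the 8 libraries, the knockout effects in the 2 cell types differed in 0 of 81 nuclear and 0 of 11 mitochondrially encoded members by edgeR (background 0%, 0 of 11671 genes, with 225 genes or 1.93% and 0 members under 0.05 unadjusted). The median difference, BMDM minus BMDC, was -0.59 for the nuclear members and -0.40 for the mitochondrial ones, and 48.1% of all genes were above 0. The nuclear value was -0.12 with the length trend removed and 0.23 without BMDC knockout 2. Without BMDC knockout 1 it was -1.16. mt-Nd6 had the smallest p of the members, with a difference of -1.33 (SE 0.68). This comparison shares its libraries with the others.

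Between the control libraries, which carry no Cre, most nuclear members were higher in BMDM than in BMDC. The median log2 difference was 0.44, with 76 of 81 above 0, beside -0.02 and 49.2% for all genes. Both BMDM controls lay above both BMDC controls for 59 of 81 nuclear members, against 36.3% of all genes, and below for 2 members, against 37.7%. Few differences passed the test: 3 of 81 members, or 3.70%, in the joint edgeR fit, against 9.75% of all 11671 genes (4.67% higher, 5.08% lower). Ndufa4 and Cox7a2l were higher in BMDM and Cox6a2 was lower. Because the 2 cell types were deposited in separate tables and grown in different factors, culture and cell type cannot be told apart here.

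Ndufa4 (ENSMUSG00000029632, chromosome 6, minus strand, 11900291 to 11907496 as deposited), named for complex I but now known as a subunit that associates with complex IV, had 59.9 and 51.9 CPM in the BMDC controls and 140 and 109 CPM in the BMDM controls. The BMDC knockouts had 47.9 and 78.8 CPM and the BMDM knockouts 117 and 125 CPM, so the cell types also separate there. The log2 difference of the controls was 1.15 (SE 0.29, adjusted p = 0.048 by edgeR). Cox7a2l (ENSMUSG00000024248, chromosome 17, minus strand, 83809347 to 83824759), a factor that joins complexes III and IV into supercomplexes and is known in a shortened allele in C57BL/6 mice, had 175 and 190 CPM in the BMDC controls and 432 and 365 CPM in the BMDM controls. Its log2 difference was 1.13 (SE 0.25, adjusted p = 0.033 by edgeR), and the knockouts had 189 and 270 CPM in BMDC and 369 and 387 CPM in BMDM. For both genes all 4 BMDM libraries were above all 4 BMDC libraries. Per length, Cox7a2l was at 93.8% to 169% of the FPKM of Cox7a2 in the BMDC and at 190% to 214% in the BMDM.

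Cox6a2 (ENSMUSG00000030785, chromosome 7, minus strand, 127804607 to 127805559 as deposited) went the other way. It had 234 and 211 reads in the BMDC controls, 140 and 314 in the BMDC knockouts, 10 and 1 in the control BMDM, and 14 and 3 in the knockout BMDM. In CPM the controls were at 12.7 and 10.3 in BMDC and at 0.690 and 0.0648 in BMDM, a log2 difference of -4.92 (SE 1.00, adjusted p = 0.023 by edgeR), or 3.30% of the BMDC level. The gene lies inside Itgad, an integrin gene on the plus strand (127753548 to 127822988), downstream of the integrin gene Itgax (127728719 to 127749829). Itgad had at most 7 reads in any library, and Itgax had 1153, 1474, 2262 and 2886 reads in the BMDC against 491, 877, 663 and 629 in the BMDM. Cox6a2 and Itgax were thus both higher in the BMDC, but BMDC knockout 1 was the lowest of the 4 for Cox6a2 and the second highest for Itgax. The sources used here do not give the strand setting of the counting, so reads of overlapping genes on opposite strands could not be told apart.

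The calls depended on which libraries estimated the spread. Without each of the 4 control libraries in turn, all 3 genes lost the call in the joint fit, and without either BMDM knockout library Ndufa4 and Cox7a2l lost it too. Over these 8 fits the log2 difference of Cox6a2 was -7.31 (without BMDM control 1) to -4.04 (without BMDM control 2). The median log2 difference of the nuclear members was 0.33 to 0.64 over the same 8 fits. In a fit of the 4 control libraries alone, 31 of 80 nuclear members passed (30 higher, 1 lower; 38.8%), where 38.3% of all 11252 genes passed, 17.7% higher and 20.6% lower. There, Ndufa4, Cox7a2l and Cox6a2 kept the call in all 4 fits that left out 1 library, where 1 group is a lone library and the spread comes from the other group only. With the replicate number as a block in the joint fit, Ndufa4 and Cox7a2l lost it.

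By complex, the nuclear medians of the control comparison were 0.34 in complex I (35 of 38 above 0), 0.38 in complex II (3 of 4), 0.67 in complex III (8 of 8), 0.62 in complex IV (13 of 14) and 0.42 in complex V (17 of 17). Uqcrh, the hinge protein of complex III, had 77.6 and 75.7 CPM in BMDC and 195 and 146 CPM in BMDM (1.15, SE 0.41, adjusted p = 0.12 by edgeR). Cox5a, a matrix-side subunit of complex IV, had 36.0 and 36.4 CPM against 79.1 and 60.3 CPM (0.95, SE 0.30, adjusted p = 0.090 by edgeR). Atp5b had 653 and 730 CPM against 1074 and 959 CPM (0.56, SE 0.27). For all of them the BMDM controls were above the BMDC controls, without passing the test. Sdhd was the complex II member on the other side, at 147 and 127 CPM against 119 and 117 CPM (-0.22, SE 0.20).

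The mitochondrially encoded members did not move as a block between the cell types: 6 of 11 were above 0, with a median of 0.27, and 0 passed by edgeR in the joint fit. mt-Nd2 had 1361 and 1997 CPM in the BMDC controls and 814 and 925 CPM in the BMDM controls (-0.95, SE 0.27, adjusted p = 0.069 by edgeR). mt-Co2 had 8.28 and 19.2 CPM against 33.6 and 34.5 CPM (1.31, SE 0.49, adjusted p = 0.13 by edgeR), and mt-Co1 had 3673 and 8868 CPM against 9880 and 10642 CPM (0.71, SE 0.42). The groups did not overlap for these 3 genes, with mt-Nd2 lower and both complex IV genes higher in BMDM. In the fit of the 4 control libraries mt-Co2 (adjusted p = 0.030 by edgeR) and mt-Nd2 (adjusted p = 0.024 by edgeR) passed. With the length trend against all 4 controls removed from that fit, mt-Nd2 passed (-1.43, adjusted p = 0.011 by edgeR). mt-Co2 did not (0.74, adjusted p = 0.18 by edgeR), and its level is uncertain because 100% of its words occur in nuclear copies.

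Length also went with this comparison. The medians of all genes over the length bins ran from 0.34 in the shortest through 0.16, 0.00 and -0.18 to -0.45 in the longest. Those of the nuclear members were 0.48 (58 members), 0.37 (12), 0.41 (7), 0.31 (3) and 0.23 (1), above the median of all genes in each bin. With the length trend against all 4 controls removed, the nuclear median was 0.16 with 51 of 81 above 0. In that joint fit Ndufa4 (0.73, adjusted p = 0.040 by edgeR), Uqcrh (0.70, adjusted p = 0.045) and Cox6a2 (-5.54, adjusted p = 0.0042) passed, Cox7a2l did not (0.73, adjusted p = 0.055), and 13.5% of all genes did (6.61% higher, 6.93% lower). The same correction in the fit of the 4 control libraries left 17 nuclear members (12 higher, 5 lower; 21.2%), 10 of them among the 31 above, against 35.6% of all genes.

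**Figure D5:**
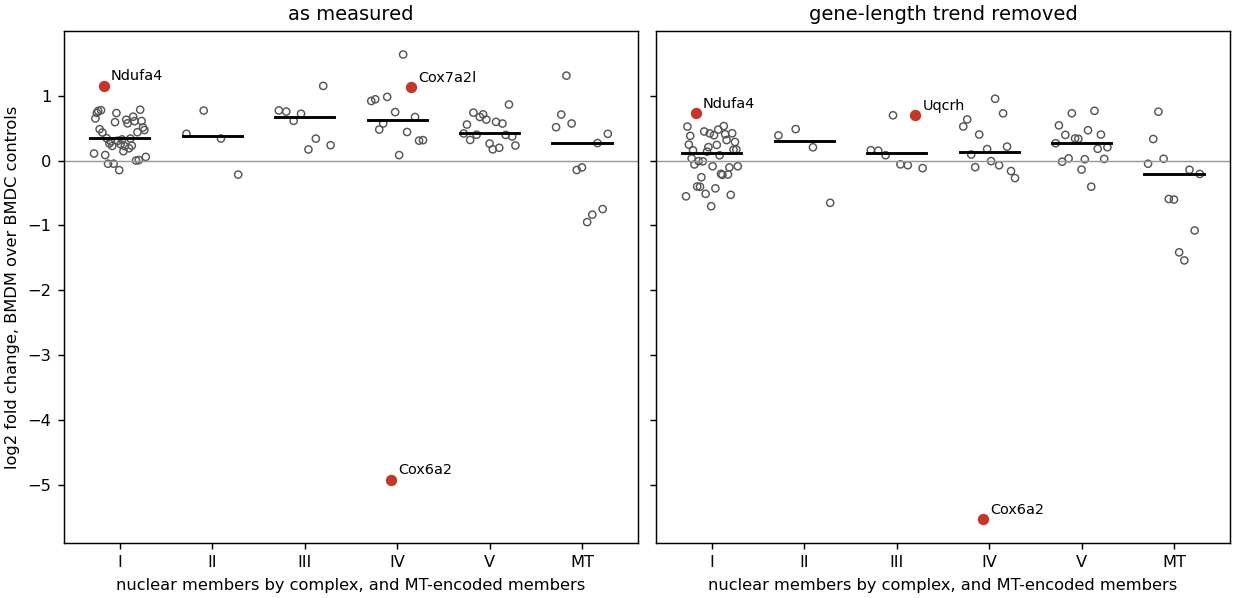
Log2 fold change of each tested member, control BMDM over control BMDC, for the nuclear members by complex and the mitochondrially encoded (MT) members, as measured on the left and with the length trend removed on the right, filled where the adjusted p was under 0.05. The bulk of the nuclear members moves from a median of 0.44 to 0.16, and Cox6a2 stays far below at -4.92 and -5.54.

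Genes that build, supply or control the complexes were counted in lists of their own. The values given for these lists are as measured, with the length trend not removed. In the control comparison, where 49.2% of all genes were above 0 and 9.75% were called, 71 of 77 mitochondrial ribosome genes were above 0 (median 0.46, 3 called), as were 13 of 17 citric acid cycle genes (0.42, 0 called), 11 of 16 complex I assembly factors (0.17, 1 called), 18 of 31 assembly factors of the other complexes (0.20, 0 called), 12 of 17 electron carrier and ubiquinone genes (0.31, 0 called), 17 of 26 genes of mitochondrial DNA expression (0.14, 0 called) and 6 of 11 regulators (0.08, 1 called). Mrps6, a small-subunit protein of the mitochondrial ribosome, rose from 3.52 and 3.12 CPM in BMDC to 26.7 and 22.4 CPM in BMDM (2.89, SE 0.42, adjusted p = 0.0067 by edgeR). Ndufaf4, an assembly factor of complex I, rose from 14.8 and 14.9 CPM to 33.9 and 29.0 CPM (1.08, SE 0.25, adjusted p = 0.038 by edgeR). Hif1a, the hypoxia-responsive transcription factor that favours glycolysis, fell from 239 and 285 CPM to 85.8 and 81.5 CPM (-1.65, SE 0.40, adjusted p = 0.043 by edgeR). In both knockout comparisons 0 genes of these lists were called; in BMDC, where 51.6% of all genes were above 0, the ribosome list had a median of 0.35 with 66 of 77 above 0, and the other lists had medians of -0.27 to 0.14. Mrpl14, of that list, had 7.25 and 7.42 CPM in BMDC control cultures against 8.35 and 21.3 CPM in knockout cultures, high in knockout 2 as the nuclear members were.

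The promoters of nuclear members are known to carry sites for NRF1, for the ETS factor GABP, for YY1 and for ERR, factors that tie them to mitochondrial biogenesis. Of the 85 nuclear members, 68 matched at least 1 RefSeq promoter window (GRCm38.p6, 250 bases before to 50 after the start), and a gene was counted where any of its windows held the letters. On either strand, GCATGCGC (NRF1) was found for 10 of the 68 members, or 14.7%, against 5.24% of 12093 listed genes with a window. CCGGAAG (ETS) was found for 17, or 25.0%, against 17.5%. The YY1 motif was found for 5, or 7.35%, against 1.98%, and TNAAGGTCA (ERR) for 3, or 4.41%, against 1.02%. Among all 32851 windows the shares were 2.71%, 8.86%, 0.852% and 1.28%. Ndufa4 and Cox7a2l held none of these letters in the window. The windows of Cox6a1, the nuclear member of complex IV with the highest FPKM, and of Uqcrh are shown because they carry such letters, in capitals: NRF1 and ETS in Cox6a1, ETS in Uqcrh. The first is chr5:115348909-115349208 and the second chr4:116075021-116075320, both minus strand of GRCm38.p6 and 5′ to 3′; the deposited gene positions given above differ from that build and were not converted.
Cox6a1: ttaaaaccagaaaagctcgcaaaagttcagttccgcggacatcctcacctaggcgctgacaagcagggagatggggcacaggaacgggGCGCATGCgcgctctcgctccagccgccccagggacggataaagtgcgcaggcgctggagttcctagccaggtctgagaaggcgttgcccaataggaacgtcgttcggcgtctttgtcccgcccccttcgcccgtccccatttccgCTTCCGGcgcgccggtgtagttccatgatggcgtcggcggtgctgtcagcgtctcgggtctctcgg
Uqcrh: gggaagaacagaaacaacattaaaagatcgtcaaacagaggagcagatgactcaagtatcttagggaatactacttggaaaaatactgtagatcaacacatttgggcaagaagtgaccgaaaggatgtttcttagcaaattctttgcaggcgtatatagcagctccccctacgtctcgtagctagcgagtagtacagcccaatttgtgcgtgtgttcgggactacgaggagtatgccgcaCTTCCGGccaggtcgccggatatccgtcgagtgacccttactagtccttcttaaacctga
The NRF1 letters of Cox6a1 begin 162 bases before the start and its ETS letters 16 bases before, and those of Uqcrh begin 10 bases before. Such matches describe the sequence only.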

How the data were processed

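Per the labels' protocols, RNA was extracted with TRIzol, TruSeq stranded mRNA libraries were run on a NovaSeq, reads were trimmed with cutadapt and aligned to GRCm38, and HTSeq counted reads per gene. GRCm38 and GRCm39 both stand in the submitters' processing notes. The aligner, versions, strand setting and treatment of multi-mapping reads are not given in the sources used here, and positions are as deposited.

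The authors deposited raw counts and FPKM for 4 libraries in each of 2 tables (14755 genes for BMDC, 14311 for BMDM, 13689 in both). The deposited FPKM equal the count divided by the listed gene length and the table's total, to within 4.4e-11. Totals were 15790185 to 19463457 counts; counting error adds most for members with few reads (Cox6a2, Cox7a1, Atp5o).

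Genotypes were compared per cell type, and the control groups and the difference of knockout effects in a joint fit of the 8 libraries over genes in both tables, with edgeR 4.0.16 in R 4.3.3: quasi-likelihood test with TMM, genes kept by filterByExpr (minimum count 10), p-values adjusted by Benjamini-Hochberg over all genes tested, threshold 0.05. Fold changes are log2 values with SE = |log2 fold change| divided by the square root of F. With n = 2 a group, a p-value sets a difference against the spread between these samples, moderated over all genes tested. In the joint fit that spread comes from the control and knockout groups of both cell types. The code was tested on simulated data. CPM differ slightly between the fits within a cell type and the joint fit.

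Alternatives were DESeq2 1.42.0 and its size factors, limma-voom and limma 3.58.1 on log2(FPKM + 1) and log2(FPKM + 0.1), filters (none, 1 CPM in at least 2 libraries), a loess trend on gene length (span 0.5) removed from each library, a replicate block and leaving out each library. Replicate numbers pair nothing by the labels.

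Named were the mitochondrially encoded members, the 2 smallest p per nuclear complex and comparison, called members, the highest and lowest mean FPKM per complex and isoform sets. Further genes whose groups did not overlap, Cox5a, Cox5b-ps and the neighbours of Cox6a2 were named after their values were seen. Members and lists were chosen with earlier results of these data known. Shared sequence was counted in 50-base words of GENCODE M21 transcripts; promoters are RefSeq windows of GRCm38.p6, searched on both strands for 4 motifs. Not every gene that the naming rule selects is reported here.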

Additional observations from a re-analysis of the deposited data

How the results depend on the processing

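In the knockout comparisons 0 members passed in the main edgeR fits, and 0 passed under DESeq2, limma, the filters, scalings, length correction or blocks; leaving out libraries changed this in BMDC. In BMDC the genes called were 6 with DESeq2, 1 without a filter, 1 in the joint fit and 2 with a replicate block; leaving out 1 library gave 0 to 3215 genes, 0 to 55 nuclear and 0 to 1 mitochondrial members, nuclear medians of -0.27 to 1.09 and mitochondrial medians of -0.10 to 1.15. In BMDM the joint fit called 2 genes, leaving out 1 library 11 to 34 (nuclear medians -0.25 to 0.14, mitochondrial -0.0772 to 0.0657), and the mitochondrial median was 0.0943 with either FPKM pseudocount and 0.0516 with the length trend removed.

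The labels share only replicate numbers: deviations of same-numbered libraries correlated at -0.0109 in BMDC and -0.314 in BMDM. With the numbers crossed in a block, BMDM had 29 genes called. In the control comparison the replicate block left 1 nuclear member.

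In the control comparison DESeq2 called 2212 genes, 5 nuclear and 1 mitochondrial members; the length trend removed within the joint fit gave 2339, 13 and 1; leaving out 1 library gave 218 to 4877, 0 to 38 and 0 to 2, with nuclear medians of 0.33 to 0.64 and mitochondrial medians of -0.0775 to 0.89. The 4 control libraries alone called 4311, 31 and 2, and with 1 of them left out 2577 to 4945 (4827 without BMDC control 2), 28 to 37 and up to 7 (mitochondrial median up to 0.90). With the length trend against all 4 controls removed they called 4001, 17 and 1, and the mitochondrial median was -0.18, or -0.21 in the joint fit. The difference of knockout effects had 0 to 3733 genes, 0 to 56 nuclear and 0 to 1 mitochondrial members called on leaving out 1 library, with medians of -1.16 to 0.23 and -1.25 to -0.0436. The causes were not tested.

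As shares of summed FPKM in place of counts, nuclear members held 1.45% and 1.62% in BMDC controls and knockouts and 1.62% and 1.81% in BMDM, and mitochondrial ones 3.86%, 3.98%, 3.38% and 4.08%. FPKM alternatives were not run between the cell types, whose tables were scaled separately. Depth limits the members under 1 FPKM and Cox6a2 in BMDM, with 1 to 14 reads a library.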
